A study of Homo sapiens with 6 samples.

Results

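The 6 genes described here, CXCL1, CXCL2, CXCL3, CXCL5, CXCL6 and CXCL8, encode neutrophil-attracting chemokines that act through the receptor CXCR2. They were chosen by gene symbol, not by a rule on their values, but with earlier results of these data known. All 6 were found among the 58174 genes listed in each sample. RNA was sequenced from T24, an established human bladder cancer cell line, in 3 samples with a scrambled control shRNA (shRNA-NC) and 3 samples with an shRNA against UBC9 (shRNA-UBC9). Both groups were infected with lentivirus and selected with puromycin as stable lines, so infection and selection are shared by the groups. The UBC9 arm rests on 1 hairpin, so an effect of that hairpin and an effect of losing UBC9 cannot be told apart. UBC9 is the conjugating enzyme that attaches SUMO proteins to their targets. The comparison asks how the loss of this enzyme changed the RNA of the chemokines.

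CXCR2 ligands are small secreted proteins that carry the motif glutamate-leucine-arginine (ELR) before their first cysteines. They recruit and activate neutrophils, and CXCL8 and CXCL6 also bind the related receptor CXCR1. Epithelial and tumour cells make them after stimulation by interleukin-1 or tumour necrosis factor, mainly through the transcription factor NF-kB. Their mRNAs are short-lived because AU-rich elements in the 3′ UTR recruit decay factors.

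The 6 genes lie in 1 cluster on chromosome 4 (GRCh38, GENCODE release 44), which spans 358.7 kb from the start of CXCL8 to the end of CXCL2, and the canonical transcript of each has 4 exons. CXCL8 (chr4:73740519-73743716), CXCL6 (chr4:73836640-73849064) and CXCL1 (chr4:73869393-73871308) lie on the plus strand. CXCL5 (chr4:73995642-73998677), CXCL3 (chr4:74036589-74038807) and CXCL2 (chr4:74097040-74099196) lie on the minus strand.

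The 100 bases before each RefSeq start site are shown because the same 9 letters stood in all 6 of them. The sequences come from the RefSeq promoter table (GRCh38.p14), run 5′ to 3′ on the strand of the gene, and capitals mark GGAATTTCC, the core of an NF-kB type motif. RefSeq starts differ from the GENCODE gene bounds given above for CXCL2, CXCL3, CXCL6 and CXCL8, so their windows can overlap those bounds.
CXCL1 (chr4:73869293-73869392, plus strand): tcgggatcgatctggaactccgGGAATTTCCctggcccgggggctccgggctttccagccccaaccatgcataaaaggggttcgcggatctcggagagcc
CXCL2 (chr4:74099196-74099295, minus strand): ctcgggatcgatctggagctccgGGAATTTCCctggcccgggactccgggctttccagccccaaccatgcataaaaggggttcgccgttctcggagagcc
CXCL3 (chr4:74038690-74038789, minus strand): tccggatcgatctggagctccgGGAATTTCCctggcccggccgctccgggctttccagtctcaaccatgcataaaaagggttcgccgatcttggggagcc
CXCL5 (chr4:73998678-73998777, minus strand): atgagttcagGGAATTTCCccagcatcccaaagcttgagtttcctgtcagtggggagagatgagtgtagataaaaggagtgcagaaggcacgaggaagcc
CXCL6 (chr4:73836578-73836677, plus strand): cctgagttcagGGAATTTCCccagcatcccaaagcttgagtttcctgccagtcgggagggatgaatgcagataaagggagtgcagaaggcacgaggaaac
CXCL8 (chr4:73740469-73740568, plus strand): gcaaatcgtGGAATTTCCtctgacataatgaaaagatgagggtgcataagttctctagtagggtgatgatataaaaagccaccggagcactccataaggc

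These letters were searched on both strands of the RefSeq promoters (250 bases before the start and 50 after it), and they were chosen after the sequences had been read. They stood in 6 of the 6 chemokine promoters and in 0.4724% (129) of 27305 RefSeq promoters. Counted from the start site, the first of the 9 letters stood at position -78 in CXCL1 and CXCL3, -77 in CXCL2, -90 in CXCL5, -89 in CXCL6 and -91 in CXCL8. The full NF-kB consensus of 10 letters, which overlaps this site, was found in 5 of the 6 promoters, all but that of CXCL8, and in 5.721% of all promoters. The AP-1 motif TGANTCA was found in CXCL8 alone of the 6 (7.764% of all promoters), as was TATAAA (11.95%), and the C/EBP motif TTGCNNAA in CXCL2 alone (10.56%). A match is a description of letters and shows no binding.

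By sequence the promoters fell into a set of 3, a pair and CXCL8. Over the 250 bases before the start, CXCL5 and CXCL6 shared 85.26% of aligned bases, CXCL1 and CXCL3 81.4%, CXCL2 and CXCL3 73.31% and CXCL1 and CXCL2 70.43%. All other pairs shared between 42.05% and 51.46%.

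Before the ligands were compared, the libraries were examined. Values are RPKM, reads scaled to gene length and to all mapped reads. The steps of the RPKM values gave depths of 28219032 to 36058872 mapped reads per sample. Of 4 simple epithelial keratins all were present, with sums of 937.1 to 1107 RPKM in shRNA-NC. The 5 uroplakins were at 0.167 RPKM or less and KRT20 was at 0 in all samples, so these markers of mature urothelium were at or near 0. Of the other urothelial markers listed, TP63 was also near 0. GATA3 and PPARG were expressed, with means of 7.66 and 17.5 RPKM in shRNA-NC. LYZ, MPO and CD3E, markers of white blood cells, were listed at 0 in shRNA-NC replicate 1 and shRNA-UBC9 replicate 3 and at up to 0.786 RPKM in the other 4 libraries. Those 2 libraries also had the lowest depths, and values without them are given below. Nothing in the labels says that the samples of a group were separate cultures, so p-values measure the spread between these samples, which may be technical.

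All 6 ligands were higher in shRNA-UBC9, from 3.31-fold for CXCL6 to 43.0-fold for CXCL5 in mean RPKM. For each of them the lowest shRNA-UBC9 sample exceeded the highest shRNA-NC sample, by 1.46 times for CXCL6 and by 5.38 to 23.9 times for the other 5. All 6 passed the filter on low values, and all 6 were called up with limma, with a log2 fold change over 1 and a Benjamini-Hochberg adjusted p below 0.05. Among the 12428 tested genes, 5.20% were called up and 2.70% were called down, and in 25.7% no shRNA-UBC9 value was at or below an shRNA-NC value. The median log2 fold change over all tested genes was 0.0048. An exact two-sided permutation test gave p = 0.1 for each ligand, the smallest p that 3 samples against 3 allow. In bulk RNA, more cells that express a gene and more RNA per cell cannot be told apart.

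**Figure D1:**
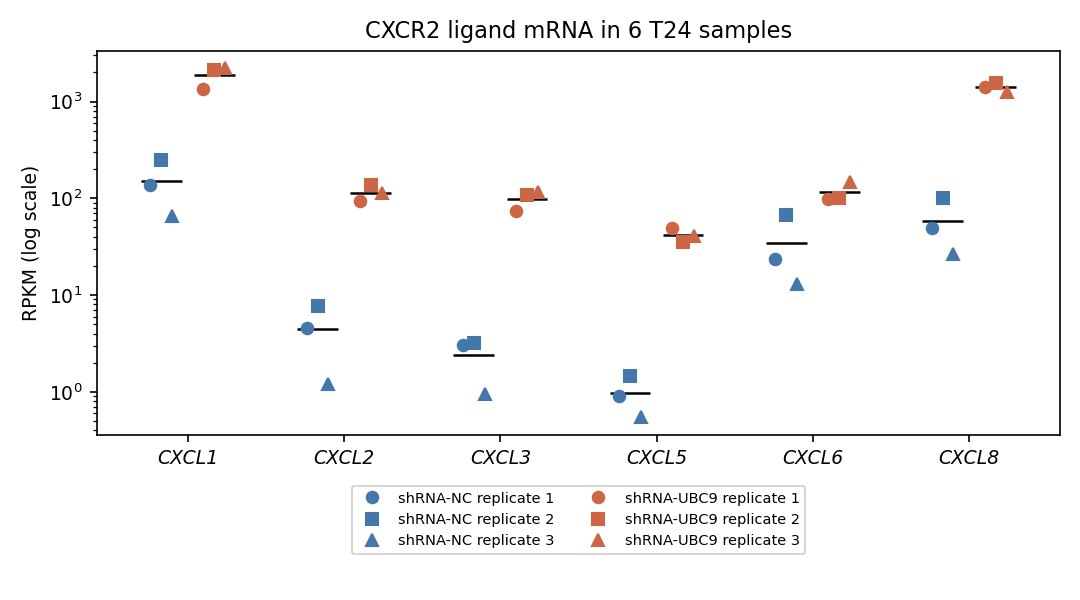
RPKM of the 6 ligands (vertical axis, log scale) in each of the 6 samples, with shRNA-NC in blue and shRNA-UBC9 in orange. Marker shapes stand for replicate numbers and black lines for group means. No orange point lies at or below a blue point of the same gene, and the groups come closest for CXCL6, with 67.4 RPKM in the highest shRNA-NC sample and 98.1 RPKM in the lowest shRNA-UBC9 sample.

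CXCL1, a growth-regulated chemokine first known as a melanoma growth factor, had the highest mean level of the family in both groups. It was at 137.9, 249.7 and 66.04 RPKM in shRNA-NC replicates 1, 2 and 3 and at 1343, 2128 and 2212 RPKM in shRNA-UBC9 replicates 1, 2 and 3. The groups were separated by a gap of 5.38 times although shRNA-NC alone varied 3.78 times from its lowest to its highest sample. The group means were 151.2 ± 92.6 and 1894 ± 479 RPKM (SD, n = 3), and the log2 fold change was 3.81 (SE 0.42, adjusted p = 0.0004693 from limma). By RPKM rank among all genes CXCL1 stood between 110 and 495 in shRNA-NC and between 3 and 9 in shRNA-UBC9.

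CXCL2 and CXCL3 are the closest relatives of CXCL1 and share its main receptor. CXCL2 was at 4.56, 7.66 and 1.202 RPKM in shRNA-NC replicates 1, 2 and 3 and at 93.3, 136.7 and 114.4 RPKM in shRNA-UBC9 replicates 1, 2 and 3. Replicate 3 of shRNA-NC was low, and shRNA-NC varied 6.37 times, more than for any other ligand. The log2 fold change was 4.97 (SE 0.55, adjusted p = 0.0004552 from limma). It rested in part on that low sample, since without shRNA-NC replicate 3 the log2 fold change was 4.24, with an adjusted p of 0.000134 (between 0.000134 and 0.0101 over its alternatives).

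CXCL3 had 3.02, 3.23 and 0.946 RPKM in shRNA-NC replicates 1, 2 and 3, against 73.8, 108.0 and 115.0 RPKM in shRNA-UBC9 replicates 1, 2 and 3. The lowest shRNA-UBC9 sample was 22.9 times the highest shRNA-NC sample. The log2 fold change of 5.46 (SE 0.41, adjusted p = 7.743e-05 from limma) ranked 17 among all tested genes, the top rank within the family.

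CXCL5, a ligand known from epithelial cells, was the least abundant member in both groups. Its level was 0.898, 1.47 and 0.547 RPKM in shRNA-NC replicates 1, 2 and 3, and 49.6, 35.1 and 40.7 RPKM in shRNA-UBC9 replicates 1, 2 and 3. The gap of 23.9 times between the groups was the widest of the 6. The group means were 0.971 ± 0.464 and 41.8 ± 7.33 RPKM (SD, n = 3), and the log2 fold change was 5.37 (SE 0.29, adjusted p = 1.57e-05 from limma). Because the control level was near 1 RPKM, this value depends on the pseudocount of 0.1 added before taking logs, and a pseudocount of 1 gave 4.45.

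CXCL6, which binds CXCR1 as well as CXCR2, had the smallest fold change of the family. It was at 23.8, 67.4 and 13.1 RPKM in shRNA-NC replicates 1, 2 and 3 and at 98.1, 99.7 and 147.5 RPKM in shRNA-UBC9 replicates 1, 2 and 3. The groups did not overlap, but shRNA-NC replicate 2 came close to the lowest shRNA-UBC9 samples. The group means were 34.7 ± 28.8 and 115.1 ± 28.1 RPKM (SD, n = 3), and the log2 fold change was 2.03 (SE 0.50, adjusted p = 0.015 from limma), which ranked 210 among all tested genes.

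The call for CXCL6 was lost under 2 alternatives. Without shRNA-NC replicate 1 the log2 fold change was 1.925 with an adjusted p of 0.0559 from limma. In the 4 libraries that hold LYZ, MPO and CD3E reads, a set chosen after seeing the data, it was 1.73 with an adjusted p of 0.124. Its adjusted p ranged from 0.00112 to 0.124 over 17 alternatives, and without shRNA-NC replicate 2 its log2 fold change was 2.67. The remaining pair of libraries, without those reads, differed by 2.63 on the log2 scale for CXCL6, with no replicate.

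CXCL8, also known as interleukin-8, is the prototype of the family and a strong neutrophil attractant. It was at 49.4, 99.6 and 26.4 RPKM in shRNA-NC replicates 1, 2 and 3 and at 1420, 1542 and 1244 RPKM in shRNA-UBC9 replicates 1, 2 and 3. All 3 shRNA-UBC9 samples lay close together, within 1.24 times, the narrowest range of the 6 ligands. The log2 fold change was 4.78 (SE 0.40, adjusted p = 0.0001188 from limma). The rank by RPKM moved from between 308 and 1538 to between 7 and 12.

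**Figure D2:**
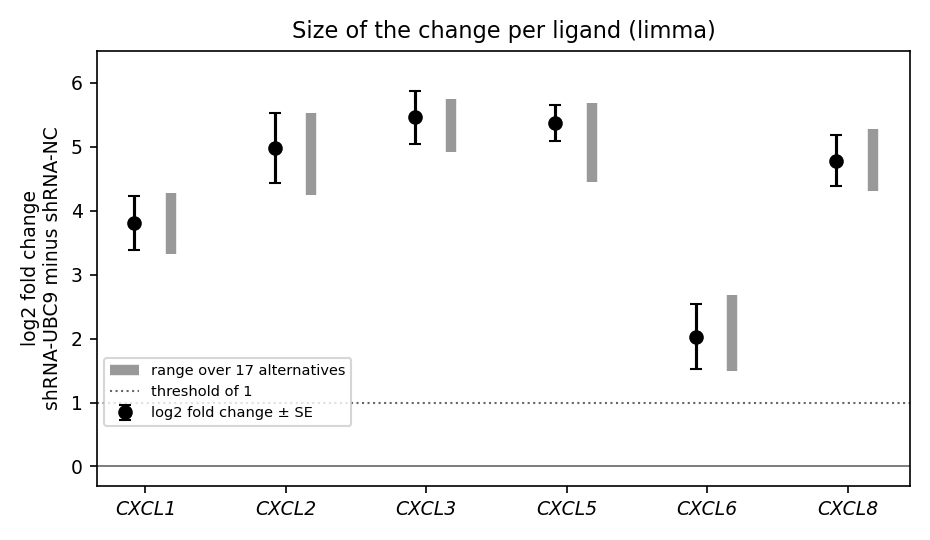
Log2 fold change of each ligand, shRNA-UBC9 minus shRNA-NC, from limma on log2(RPKM + 0.1). Black points with bars give the value ± SE over 3 samples per group, grey bars the range over 17 alternatives, and the dotted line the threshold of 1. CXCL6, at 2.03, is the lowest and its grey bar runs from 1.495 to 2.674, while the grey bars of the other 5 stay above 3.

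The other 5 ligands kept their calls under all 17 alternatives, and their log2 fold changes then lay between 3.32 and 5.75. In the 4 libraries with LYZ, MPO and CD3E reads they were 3.72 for CXCL1, 5.15 for CXCL2, 5.58 for CXCL3, 5.38 for CXCL5 and 4.85 for CXCL8. In the 2 libraries without those reads the differences were 4.003, 4.62, 5.21, 5.35 and 4.65 for the same genes. The rise of these 5 was thus seen on both sides of the split.

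The low values of CXCL2, CXCL3 and CXCL5 in shRNA-NC were still well above the counting limit. RPKM times gene length and depth came out as whole reads in all 6 samples, within 0.001 reads, at 1 gene length per ligand. CXCL5 had 68, 129 and 47 reads in shRNA-NC replicates 1, 2 and 3 and 4539, 3136 and 2915 in shRNA-UBC9. CXCL2 had 204, 398 and 61 reads in shRNA-NC, and CXCL3 had 200, 248 and 71. For the sample with the fewest reads of a ligand, counting alone gives a coefficient of variation between 1.86% for CXCL1 and 14.6% for CXCL5. The coefficients of variation between shRNA-NC samples were 47.8% to 82.8%, so the spread of the controls was far larger than the counting error. Between shRNA-UBC9 samples they were 10.7% to 25.3%. The largest numbers of reads were those of CXCL8, with 116413, 123523 and 79805 in shRNA-UBC9 replicates 1, 2 and 3.

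The controls stood in the same order for every ligand. In all 6 genes shRNA-NC replicate 2 was highest, replicate 1 lay between and replicate 3 was lowest, an order found in 13.24% (1645) of the tested genes. In shRNA-UBC9 no such common order was seen, with CXCL1 and CXCL3 highest in replicate 3, CXCL2 and CXCL8 in replicate 2, CXCL5 in replicate 1 and CXCL6 in replicate 3. Deviations of each ligand from its group means correlated with the mean profile of the 6 at 0.88 for CXCL5 to 0.98 for CXCL2. These are descriptions over 6 samples of shared libraries, and each ligand is part of that profile.

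Together the 6 genes made up 219.5, 429.0 and 108.2 RPKM in shRNA-NC replicates 1, 2 and 3, and 3077, 4049 and 3873 RPKM in shRNA-UBC9 replicates 1, 2 and 3. This was 0.0949%, 0.186% and 0.0468% of all RPKM in shRNA-NC, and 1.33%, 1.69% and 1.64% in shRNA-UBC9. The mean sum was 14.5-fold higher in shRNA-UBC9, at 3666 ± 518 RPKM against 252 ± 163 RPKM (SD, n = 3).

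The make-up of this pool differed between the groups. CXCL8 took 22.5%, 23.2% and 24.4% of it in the shRNA-NC samples and 46.1%, 38.1% and 32.1% in the shRNA-UBC9 samples. CXCL6 took 10.8%, 15.7% and 12.1% in shRNA-NC and 3.19%, 2.46% and 3.81% in shRNA-UBC9. CXCL1 remained the largest part on average, with 60.7% ± 2.32 in shRNA-NC and 51.1% ± 6.85 in shRNA-UBC9 (SD, n = 3 each). The shares of the groups did not overlap for any of the ligands, CXCL2, CXCL3 and CXCL5 included. Shares of the same sum depend on each other, so a rise of some forces a fall of others. Their sizes also depend on the gene lengths behind the RPKM values. How often shares within other gene sets fail to overlap was not computed. CXCL2, CXCL3 and CXCL5 had mean shares of 1.66%, 1.001% and 0.419% in shRNA-NC and of 3.12%, 2.68% and 1.18% in shRNA-UBC9.

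**Figure D3:**
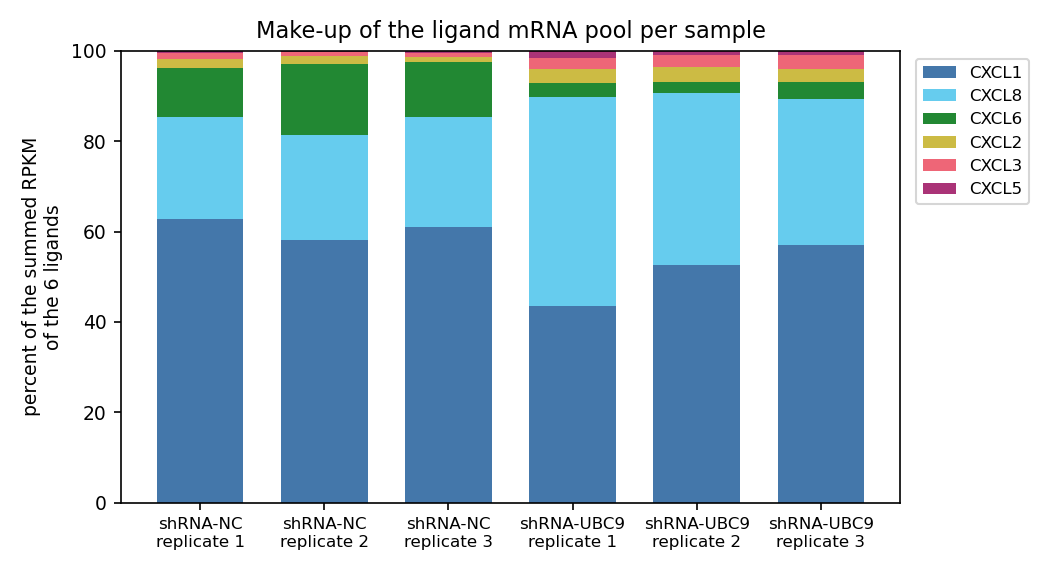
Share of each ligand in the summed RPKM of the 6 ligands (vertical axis, percent), with 1 stacked bar per sample. CXCL1 and CXCL8 fill most of every bar, and the part of CXCL6 is between 10.8% and 15.7% in the shRNA-NC bars and between 2.46% and 3.81% in the shRNA-UBC9 bars.

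Ratios between ligands within a sample, which do not depend on depth, tell how unlike the rises were. Of 15 pairs, the log2 ratios of shRNA-NC and shRNA-UBC9 did not overlap in 9, namely every pair with CXCL1 or CXCL6. These 9 reuse the same genes and are not independent, and the share over other gene pairs was not computed. For single genes, every shRNA-UBC9 value was above every shRNA-NC value in 25.7% of all tested. That share is of levels and of 1 direction only, while pairs were counted in either direction. It is thus no background for the 9. Relative to CXCL1 the log2 ratio changed by 0.97 for CXCL8 (SE 0.27), 1.16 for CXCL2 (SE 0.27), 1.64 for CXCL3 (SE 0.23), 1.56 for CXCL5 (SE 0.41) and -1.78 for CXCL6 (SE 0.27). Among CXCL2, CXCL3, CXCL5 and CXCL8 the 6 pairs overlapped, with changes from -0.67 to 0.48. The exact two-sided permutation p was 0.1 for each of the 9 pairs, the smallest possible, and 0.1667 after Benjamini-Hochberg adjustment over 15 pairs, so no pair passed 0.05. With a pseudocount of 1 the change of CXCL5 relative to CXCL1 was 0.65 and the groups of this pair overlapped (exact permutation p = 0.3), while that of CXCL3 was 1.13.

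CXCL5 and CXCL6, the pair with the most alike promoters at 85.26%, were among the pairs with the most unlike rises. The log2 ratio of CXCL6 to CXCL5 was 4.58, 5.43 and 4.34 in shRNA-NC replicates 1, 2 and 3 and 0.98, 1.505 and 1.86 in shRNA-UBC9 replicates 1, 2 and 3, a change of -3.34 (SE 0.42). Only CXCL6 relative to CXCL3 changed more, by -3.43 (SE 0.44).

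The order of the levels in RPKM was CXCL1, CXCL8, CXCL6, CXCL2, CXCL3 and CXCL5 in all 3 shRNA-NC samples. The means followed the same order in shRNA-UBC9, but CXCL6, CXCL2 and CXCL3 then lay close together, at 115.1, 114.8 and 98.9 RPKM with overlapping ranges. CXCL8 was above CXCL1 in shRNA-UBC9 replicate 1 and below it in replicates 2 and 3, and their ranges overlapped. In shRNA-NC the ranges of neighbours also overlapped, except for CXCL6 and CXCL2. The order rests on the gene lengths behind the RPKM values, which exceeded the canonical transcripts unevenly. They were 2219 against 1075 bases for CXCL3 and 2538 against 2436 for CXCL5. With other lengths, genes that lie close together could change places.

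Reads of CXCL1, CXCL2 and CXCL3 could be shared between these genes. Their canonical transcripts were 83.43% alike for CXCL1 and CXCL2, 72.03% for CXCL2 and CXCL3 and 69.32% for CXCL1 and CXCL3. Exact stretches of 50 bases also found in another member made up 5.33% of CXCL1, 10.1% of CXCL2 and 5.26% of CXCL3, and none of CXCL5, CXCL6 or CXCL8, and no stretch of 100 bases was shared. How the authors treated reads that map to several places is not given in the sources used here, so the levels of these 3 are less certain.

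The remaining ELR chemokine of the cluster, PPBP of platelets, was listed at 0 in all 6 samples, where 3 reads would be 0.0637 to 0.0813 RPKM. The receptors were near the limit of detection as well. CXCR1 was at most 0.0348 RPKM, CXCR2 at most 0.0176 RPKM, and ACKR1, an atypical receptor that binds the ligands without signalling, was listed at 0 in all samples. None of these 4 genes passed the filter, so T24 cells had RNA of the ligands with hardly any of their receptors at this depth.

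Of 17 genes of CXCR2 signalling, which link the receptor to cell movement through G proteins, 15 were tested. None was called up and 1 was called down, beside 5.20% and 2.70% of all tested genes, so the counts were near the background. RAC1, a small GTPase of the cytoskeleton, fell from 84.5 ± 2.64 RPKM to 42.1 ± 4.74 RPKM (SD, n = 3). Its log2 fold change was -1.01 (SE 0.10, adjusted p = 0.0002864 by limma), only just beyond the threshold of 1. RAC2, its relative of blood cells, had a log2 fold change of 0.92, under the threshold of 1. The median of the list was -0.13.

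Of 14 other genes of the locus, 5 were tested and 3 were called up, beside 5.20% of all tested genes. EREG, AREG and BTC, ligands of the EGF receptor that lie beyond CXCL2, had log2 fold changes of 2.37, 1.62 and 1.35 (adjusted p = 0.001541, 0.02288 and 0.01984 from limma). EREG was at 7.62, 19.2 and 7.42 RPKM in shRNA-NC and at 70.0, 47.8 and 46.3 RPKM in shRNA-UBC9. MTHFD2L, a mitochondrial folate enzyme whose start lies between CXCL2 and these genes, had a log2 fold change of 0.05, and ANKRD17, on the other side of the cluster, of -0.07. PF4 and PF4V1, platelet chemokines inside the cluster, were listed at 0 in all samples, as was PPBP. BTC reached 0.5 RPKM in shRNA-NC in replicate 2 alone, at 0.841 RPKM. Between the called genes of the locus, MTHFD2L was the only tested gene without a call. EPGN, between MTHFD2L and EREG, was too low to be tested. It was at 0.018, 0.016 and 0 RPKM in shRNA-NC replicates 1, 2 and 3. In shRNA-UBC9 replicates 1, 2 and 3 it was at 0.260, 0.266 and 0.488 RPKM.

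**Figure D4:**
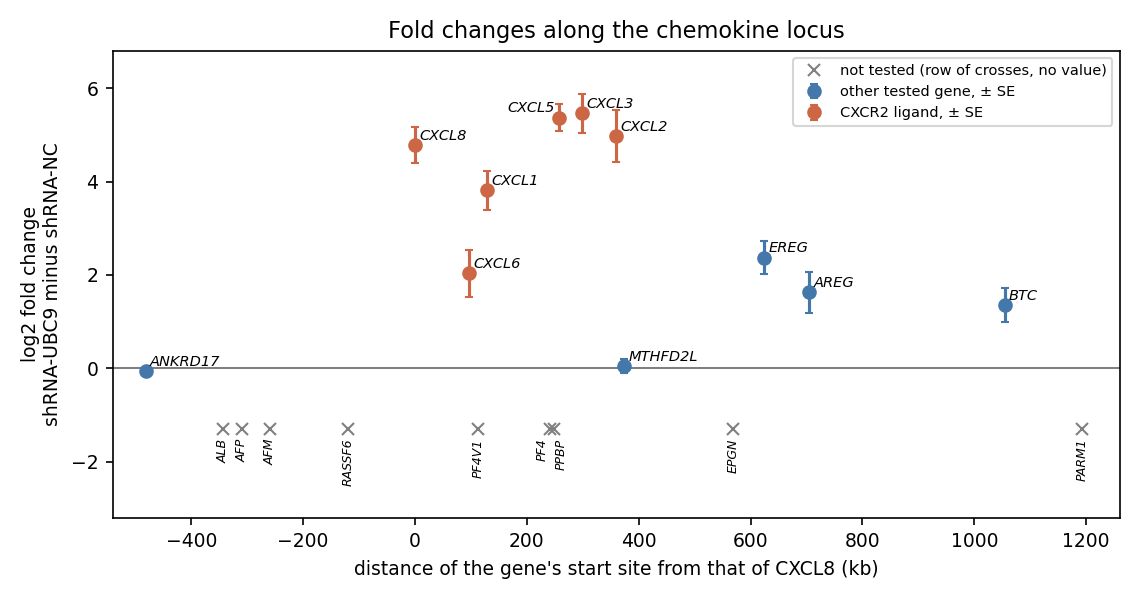
Log2 fold change, shRNA-UBC9 minus shRNA-NC (± SE), against the distance of each start site from that of CXCL8 in kb. Orange points are the CXCR2 ligands and blue points other tested genes. Crosses on the lower row are genes that were not tested, for which no fold change is drawn. MTHFD2L lies near 0 between CXCL2 at 4.97 and EREG at 2.37.

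Among other CXC chemokines, 3 of 9 were tested and all 3 were called up, beside 5.20% of all tested genes. CXCL10 and CXCL11, interferon-induced ligands of CXCR3 on T cells, had log2 fold changes of 5.55 and 5.73, and CXCL16 of 1.49 (adjusted p = 0.002422, 0.0004946 and 0.0008385 from limma). CXCL11 was at most 0.227 RPKM in shRNA-NC and passed the filter only through shRNA-UBC9. CXCL10 was at 0.171, 0.589 and 0.050 RPKM in shRNA-NC replicates 1, 2 and 3, and would not have passed without its shRNA-UBC9 values. For CXCL10 and CXCL11, being tested thus nearly fixed the call, so the count of calls says little. CXCL10 differed from the CXCR2 ligands in its spread. It was at 8.54, 64.6 and 5.06 RPKM in shRNA-UBC9 replicates 1, 2 and 3, a far wider range than any of the 6.

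Cytokines known to induce CXCR2 ligands were higher too. Of 11 listed, 4 were tested and 3 of these were called up, beside 5.20% of all tested genes. IL1B was at 28.1, 32.4 and 22.3 RPKM in shRNA-NC replicates 1, 2 and 3 and at 493.9, 512.8 and 402.5 RPKM in shRNA-UBC9 replicates 1, 2 and 3. IL1A (log2 fold change 3.52) and TNF (2.89, adjusted p = 0.00203 from limma) rose as well. LTB, at 0.49, was not called, and the IL17 genes IL17A and IL17F were listed at 0 throughout. The controls of TNF, with 0.940, 1.55 and 0.282 RPKM, had the same order of replicates as the CXCR2 ligands.

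Of 20 genes of NF-kB and its partner transcription factors, all were tested, and the median log2 fold change was 0.89. Of them 9 were called up and none down, beside 5.20% and 2.70% of all tested genes. Feedback inhibitors of NF-kB were among them, with TNFAIP3 at a log2 fold change of 3.42, NFKBIZ, a nuclear cofactor, at 2.16 and NFKBIA at 1.66 (adjusted p = 0.000256, 0.0003877 and 0.00264 from limma). The subunits of the non-canonical arm, RELB and NFKB2, rose by 1.99 and 1.76 on the log2 scale. RELA and NFKB1, the subunits of the classical dimer, had log2 fold changes of 0.44 and 0.60, under the threshold. Of the partners, CEBPB (2.19), FOS (1.94), JUNB (1.66) and CEBPD (1.02) were called up, while JUN was at 0.84. FOS was at most 0.357 RPKM in shRNA-NC and passed the filter only through shRNA-UBC9.

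The 3′ UTRs of all 6 ligands held copies of ATTTA, the core of AU-rich elements. There were 6 in CXCL1, 10 in CXCL2, 7 in CXCL3, 11 in CXCL5, 6 in CXCL6 and 9 in CXCL8, against a median of 2 in 10837 tested genes with an annotated UTR. Per kb of UTR this was 5.36 for CXCL6 to 13.97 for CXCL2, against a median of 1.74, and between 0.434% and 7.54% of those genes had as many per kb. By number of copies alone, between 13.21% and 28.97% of those genes had as many. These are counts of letters and say nothing of mRNA half-life in these cells.

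Of 16 tested genes of AU-rich element decay and stability, which act on such mRNAs, 1 was called up and 1 down, with a median of -0.07, beside 5.20% and 2.70% of all tested genes, so the counts were near the background. ZC3H12A, the RNase Regnase-1 that degrades inflammatory mRNAs, was at 5.98, 7.47 and 2.65 RPKM in shRNA-NC replicates 1, 2 and 3 and at 31.5, 36.3 and 37.5 RPKM in shRNA-UBC9 replicates 1, 2 and 3 (log2 fold change 2.81, adjusted p = 0.0005215 from limma). ZFP36L2, which promotes decay, fell by 1.09 on the log2 scale (adjusted p = 0.001211). Its relative ZFP36, or tristetraprolin, had a log2 fold change of 0.88, under the threshold. None of 5 neutrophil and matrix proteases that cut ELR chemokines passed the filter.

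**Figure D5:**
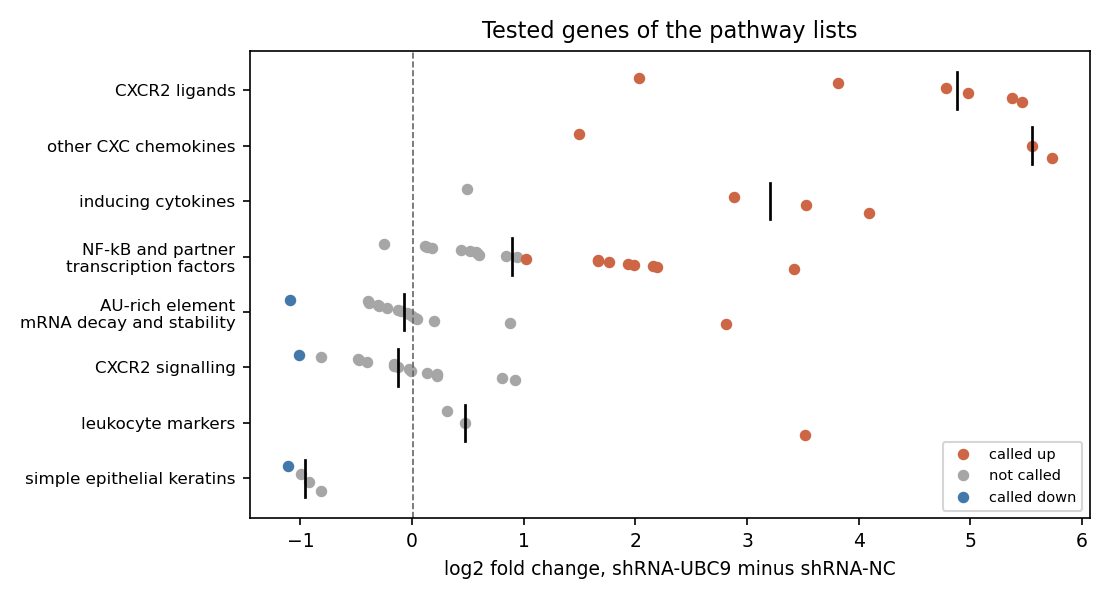
Log2 fold change (horizontal axis) of every tested gene of 8 lists, with orange points called up, blue points called down and grey points not called. Black bars are medians, the vertical spread within a list only separates points, and the dashed line is the median of all tested genes at 0.0048. The CXCR2 ligands and the inducing cytokines lie to the right, and the decay and receptor signalling lists centre near 0.

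Markers of white blood cells were given because those cells can make the same chemokines. Of 12 markers, 3 were tested and 1 was called up, beside 5.20% of all tested genes. Their sum was 3.00 to 4.96 RPKM in shRNA-NC and 20.7 to 50.3 RPKM in shRNA-UBC9. The largest part of it was CD68, a lysosomal protein of macrophages and other cells, with 3.24, 1.53 and 3.17 RPKM in shRNA-NC replicates 1, 2 and 3 and 18.6, 48.4 and 29.4 RPKM in shRNA-UBC9 replicates 1, 2 and 3. The defining marker PTPRC was at most 0.102 RPKM, CSF3R, the neutrophil receptor, was at most 0.0386 RPKM, and both groups had libraries with and without these traces. The part of CD68 in the result was not tested.

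The genes with the most similar profile were found by the correlation of log2(RPKM + 0.1) with the mean standardised profile of the 6 ligands over 6 samples. The first 10 were MAPKAPK5, NLRP3, ZC3H12A, RBKS, IL6, TMEM110, TNFAIP3, DMTN, TCF20 and EVA1C, with r from 0.993 to 0.997, and the ligands themselves had r from 0.94 to 0.998. Of these 10, NLRP3, ZC3H12A, IL6 and TNFAIP3 were called up. IL6 was at 1.88, 4.49 and 0.843 RPKM in shRNA-NC replicates 1, 2 and 3 and at 76.7, 109.5 and 73.8 RPKM in shRNA-UBC9 replicates 1, 2 and 3, with the same order of controls as the ligands. The other 6 were not called, with log2 fold changes from 0.24 for TCF20 to 0.89 for RBKS. The difference between the groups enters each r.

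After group means had been removed, KAT7, BCL2A1, ITPKA, PTDSS1 and NTMT1 followed the ligands most closely, with r from 0.987 to 0.992 over the 6 samples. BCL2A1, an inhibitor of cell death, was between 0.190 and 0.716 RPKM in shRNA-NC and rose to 26.7, 32.8 and 32.8 RPKM in shRNA-UBC9 replicates 1, 2 and 3. In shRNA-NC it reached 0.5 RPKM in replicate 2 alone, so BCL2A1 passed the filter only through shRNA-UBC9. Being tested thus nearly fixed its call. The other 4 were not called, and correlations over so few samples are descriptions only.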

How the data were processed

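Total RNA of T24 cells (3 shRNA-NC and 3 shRNA-UBC9 samples) was made into polyA libraries. After adaptor trimming, the authors aligned the reads to GRCh38 in the CLC Biomedical Genomics Workbench, and the deposited files hold RPKM for each gene. The annotation release and the treatment of reads that map to several places are not given in the sources used here. RPKM is corrected for gene length and mapped reads, not for RNA composition.

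Values were taken to log2(RPKM + 0.1), which understates the change of low genes. The 12428 genes with at least 0.5 RPKM in at least 3 of 6 samples entered limma 3.58.1 (R 4.3.3, eBayes with trend), with Benjamini-Hochberg adjustment over all of them. A gene was called with a log2 fold change beyond 1 and an adjusted p below 0.05. Ratios were compared by exact two-sided permutation tests in Python 3.11.15 with scipy 1.17.1. The test across genes was tested on simulated data.

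Depth was read from single-exon genes at 1 read, and whole reads per ligand from the shortest gene length between 300 and 8000 bases that gave them in all samples, within 0.02 reads. Whether a read or a read pair was counted is not given in the sources used here. No values above 0 were identical between any samples.

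The ligands and gene lists (other CXC chemokines, inducing cytokines, NF-kB, AU-rich element decay, proteases, CXCR2 signalling, locus, receptors and cell type markers) were chosen with earlier results of these data known. Named were all ligands and receptors, the genes called in each list with others whose role needed a value, and the genes most like the ligands (10 by correlation, 5 after removing group means). Alternatives were other pseudocounts, filters and scalings, no trend, a replicate block, leaving out each sample and, added after seeing the data, the leukocyte-trace split. The check of the targeted gene and 1 leukocyte marker are not reported here.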

Additional observations from a re-analysis of the deposited data

How the results depend on the processing

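CXCL1, CXCL2, CXCL3, CXCL5 and CXCL8 were called up under all 17 alternatives and CXCL6 under 15. Leaving out 1 sample gave log2 fold changes of 3.316 to 4.275 for CXCL1, 4.239 to 5.527 for CXCL2, 4.916 to 5.751 for CXCL3, 5.051 to 5.689 for CXCL5, 1.495 to 2.674 for CXCL6 and 4.313 to 5.269 for CXCL8. CXCL6 lost its call without shRNA-NC replicate 1 and in the 4 libraries with leukocyte traces (1.733), where fewer samples entered the fit. The number of genes called was 981, and 552 with a pseudocount of 1, of which 391 were up, against 646. With an unadjusted p it was 1003. The ratios to CXCL1 and the log2 rise of the summed RPKM (4.07, from 3.568 to 4.562 over its alternatives) kept their directions. With the replicate block the log2 fold changes did not move, 974 genes were called and the 6 ligands remained called up, CXCL6 with an adjusted p of 0.0254 from limma. The numbers were not taken as pairs, since deviations of samples with the same number correlated at -0.367, 0.0728 and -0.1705, while shRNA-NC replicate 1 and shRNA-UBC9 replicate 3 correlated at 0.526. With the leukocyte-trace split as a term all 6 ligands were called up. The 3 samples per group and the low control levels of CXCL2, CXCL3 and CXCL5 limit the precision.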

Other observations

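Epithelial markers had log2 fold changes below 0. The 4 simple epithelial keratins had log2 fold changes of -0.81 to -1.11. Of these 4, KRT7 alone was called down (adjusted p = 0.0005778 from limma), beside 2.70% of all tested genes. The sum of the keratins went from between 937.1 and 1107 RPKM in shRNA-NC to between 423.3 and 562.7 RPKM in shRNA-UBC9. PPARG, a regulator of urothelial differentiation, was at 14.5, 17.5 and 20.6 RPKM in shRNA-NC replicates 1, 2 and 3 and at 6.83, 2.49 and 3.32 RPKM in shRNA-UBC9 replicates 1, 2 and 3 (log2 fold change -2.15, adjusted p = 0.001694 from limma). It was 1 of 2 tested of 9 urothelial markers and was called down, beside 2.70% of all tested genes. GATA3, the other one, had a log2 fold change of -0.79 and was not called.

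Of 10 fibroblast and endothelial markers 3 were tested. None was called up and 2 were called down, beside 5.20% and 2.70% of all tested genes. CDH5, the endothelial cadherin, fell from 2.87 ± 0.287 RPKM to 0.619 ± 0.390 RPKM (SD, n = 3), and PDGFRB had a log2 fold change of -1.48 (adjusted p = 0.002882 and 0.003255 from limma). COL1A1, a fibroblast collagen, had a log2 fold change of 0.95 (adjusted p = 0.02762), under the threshold of 1. Their part in the rise of the ligands was not tested.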
